A study of Mus musculus with 4 samples.

Results

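The 78 mitochondrial ribosomal protein genes (MRP genes) were examined for methylated Pontin in glucose-starved mouse embryonic fibroblasts (MEFs), the proliferating connective tissue cells grown from mouse embryos. They were chosen by name among the 21938 protein-coding genes of GENCODE vM21, as those whose symbol is Mrpl or Mrps followed by a digit, with pseudogene symbols ending in -ps left out. By symbol, 49 encode proteins of the large subunit (Mrpl) and 29 proteins of the small subunit (Mrps) of the mitochondrial ribosome. A gene was counted as having a peak when a peak centre lay within 2.5 kb of any of its annotated transcription start sites (TSSs). The rule itself uses names and not peak values, but the gene family was picked with earlier results of these data known.

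The mitochondrial ribosome translates the few messages of the mitochondrial genome, which encode core subunits of the respiratory chain and of the ATP synthase. Its RNAs come from mitochondrial DNA, but all its proteins are encoded by nuclear genes scattered over the chromosomes, translated in the cytoplasm and imported. Some of these proteins descend from bacterial ribosomal proteins and others were added during the evolution of mitochondria. Promoters of nuclear genes for mitochondrial proteins are known to use the ETS factor GABP, also called NRF2, together with NRF1 and YY1. Pontin is an AAA+ ATPase of several chromatin and transcription complexes, among them the Tip60 acetyltransferase complex, and the antibody used for the ChIP recognizes its arginine-methylated form.

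The experiment had 4 libraries from WT MEFs, a methylated Pontin ChIP and an input (chromatin that was not immunoprecipitated) both for normal media and for glucose starvation, and none was replicated. The values below come from the peaks called in the ChIP under glucose starvation, and the ChIP in normal media was not analysed here, so nothing below compares starved with fed cells. That library had 20765512 tags and 4311 peaks of 481 bp. A peak list holds no expression values, so the cell type was not checked against fibroblast markers. In bulk chromatin, a lower signal from fewer cells with Pontin at a site and from less Pontin per cell cannot be told apart. Every interval below is a 95% interval and covers counting error only, over genes or tags of 1 library. Genes are not replicates of a condition, and no test between groups of genes was run.

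A methylated Pontin peak was found at 37 of the 78 MRP genes, or 47.4% (Wilson interval 36.7 to 58.4), while 41 genes had none. Over all protein-coding genes the share was 17.1%, and over the 21860 protein-coding genes that are not MRP genes it was 17.0% (16.5 to 17.5). The difference was 30.5 percentage points (Newcombe interval 19.8 to 41.4). With only peaks at least 8-fold over input, 23 MRP genes or 29.5% (20.5 to 40.4) had a peak, against a background of 9.93% of all protein-coding genes. With a limit of 1 kb the same count of 37 stood beside a background of 16.2%, and with a limit of 5 kb 38 genes had a peak beside 18.2%.

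The promoter sequences of the MRP genes are shown first for the genes with the strongest peaks. The deposited peaks were joined to the RefSeq promoters of GRCm38.p6, which hold 250 bases before each start, and the bases shown end before the start. Mrps18a encodes one of the paralogous proteins related to bacterial S18, and Mrpl51 and Mrpl48 encode large subunit proteins without a bacterial counterpart. Their peaks had the highest signals among the MRP genes whose promoters were matched. In each sequence capitals mark the ETS motif CCGGAAG or its reverse complement CTTCCGG, and in Mrpl51 also the GC box GGGCGG of SP and KLF factors. The first lies at chr17:46110754-46110985 on the plus strand with 224 of its 232 bases inside the peak. The second lies at chr6:125191950-125192164 on the plus strand with 95 of 215 bases inside the peak, and it follows the Mrpl51 start that faces the divergent neighbour Ncapd2. The third lies at chr7:100583131-100583380 on the minus strand, with all 250 bases inside the peak, and precedes an internal start of Mrpl48.
Mrps18a: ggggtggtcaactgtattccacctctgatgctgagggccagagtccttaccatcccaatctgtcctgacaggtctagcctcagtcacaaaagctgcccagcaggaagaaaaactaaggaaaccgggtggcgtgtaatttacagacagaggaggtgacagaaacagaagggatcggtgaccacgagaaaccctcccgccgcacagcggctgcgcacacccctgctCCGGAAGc
Mrpl51: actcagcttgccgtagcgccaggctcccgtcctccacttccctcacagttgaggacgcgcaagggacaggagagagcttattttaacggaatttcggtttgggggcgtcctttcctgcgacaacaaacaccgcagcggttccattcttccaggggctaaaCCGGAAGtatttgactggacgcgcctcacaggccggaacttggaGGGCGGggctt
Mrpl48: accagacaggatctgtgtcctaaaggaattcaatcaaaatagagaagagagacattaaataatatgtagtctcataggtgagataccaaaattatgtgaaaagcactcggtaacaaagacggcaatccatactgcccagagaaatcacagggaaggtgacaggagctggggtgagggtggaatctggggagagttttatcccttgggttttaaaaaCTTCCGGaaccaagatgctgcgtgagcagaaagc
They are set beside promoters of MRP genes that hold the ETS motif and had no peak within 2.5 kb, chosen after the values were seen. Mrpl34 lies at chr8:71464676-71464925 and Mrpl22 at chr11:58171414-58171660, both on the plus strand. In Mrpl22 the second run of capitals is the NRF1 motif GCATGCGC, written on the other strand.
Mrpl34: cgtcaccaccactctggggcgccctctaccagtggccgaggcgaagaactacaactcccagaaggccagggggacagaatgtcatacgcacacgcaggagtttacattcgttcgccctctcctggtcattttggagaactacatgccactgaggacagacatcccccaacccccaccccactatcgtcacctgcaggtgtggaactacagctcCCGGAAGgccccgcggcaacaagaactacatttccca
Mrpl22: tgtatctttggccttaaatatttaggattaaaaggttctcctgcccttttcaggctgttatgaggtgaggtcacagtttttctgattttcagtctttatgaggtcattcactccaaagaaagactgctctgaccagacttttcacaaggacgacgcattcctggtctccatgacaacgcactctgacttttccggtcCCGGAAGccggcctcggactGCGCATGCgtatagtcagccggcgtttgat

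GC content was compared next, because promoter peaks were rare at AT-rich promoters. GC content was taken over 1 kb centred on the TSSs. Among the other genes the share with a peak was 2.51% at a GC content of 40 to 45% and 24.4% at 60 to 65%. Weighted to the GC content of the MRP genes in bins of 2 percentage points, the other genes gave 20.7% (20 to 21.3), which would correspond to 16.1 of the 78 genes. The observed number was 37. MRP genes with and without a peak had nearly the same GC content, with medians of 55.2% and 55.4%, whereas the other genes with a peak had a median of 57.4% and those without one 53.4%.

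The MRP genes lay above the other genes in each bin of GC content that held at least 12 of them. At 45 to 50%, 5 of 12 MRP genes had a peak, against 10.3% of the other genes. At 50 to 55% it was 13 of 25 against 19.6%, at 55 to 60% 11 of 24 against 23.5%, and at 60 to 65% 7 of 14 against 24.4%. In each of these bins the lower bound for the MRP genes, 19.3%, 33.5%, 27.9% and 26.8% in that order, lay above the share of the other genes. Beyond 65% there were 3 MRP genes, of which 1 had a peak. Within the interquartile range of GC content of the MRP genes, 51.4 to 58.9%, 18 of 39 MRP genes (46.2%, 31.6 to 61.4) and 1668 of 7540 other genes (22.1%, 21.2 to 23.1) had a peak. CpG dinucleotides, counted over the same 1 kb, had a median of 53.8 in MRP genes and 39.0 in other genes. When the other genes were weighted by CpG count in bins of 10 instead, an alternative added after the data were seen, their share was 26.5% (25.7 to 27.3).

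**Figure D1:**
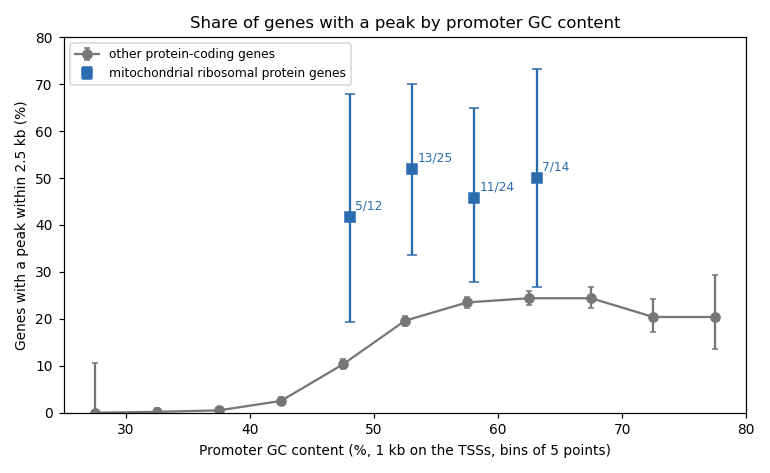
Share of genes that have a peak centre within 2.5 kb of a TSS (%, y axis) by promoter GC content (%, x axis, bins of 5 percentage points), for other protein-coding genes (grey circles and line) and MRP genes (blue squares, with genes with a peak over all genes in the bin), with 95% Wilson intervals; bins with fewer than 12 MRP genes show the other genes alone. The grey line rises to 24.4% at 60 to 65%, and the blue squares lie between 41.7% and 52.0%.

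No difference between the 2 subunits could be resolved. A peak was present at 23 of 49 Mrpl genes, or 46.9% (33.7 to 60.6), and at 14 of 29 Mrps genes, or 48.3% (31.4 to 65.6). The difference, large minus small, was -1.34 percentage points with an interval from -23.1 to 20.4, which is wide enough to hold a difference of 20 points in either direction. Weighted to the GC content of each subunit, the other genes gave 20.5% for the large and 20.9% for the small subunit. Mrps18a and Mrps30 carry a small subunit symbol but their proteins sit in the large subunit in mammalian structures, and Mrps36 is now counted outside the ribosome. Grouped by structure, a grouping added after the data were seen, 25 of 51 large subunit genes (49%) and 12 of 26 small subunit genes (46.2%) had a peak. With each peak given to its nearest gene only, the difference by symbol was 19.4 points (-3.10 to 38.1).

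The genes were also grouped by the descent of their proteins. Of 45 genes whose proteins have a bacterial counterpart, 21 had a peak (46.7%, 32.9 to 60.9), and of 32 genes for proteins added in mitochondria 16 did (50%, 33.6 to 66.4). Mrps18a and Mrps18b were counted among the latter, because the S18 counterpart of the present nomenclature is Mrps18c. The difference was -3.33 points with an interval from -24.7 to 18.4. The shares were close to each other within each subunit. Of the large subunit genes, 13 of 29 with a bacterial counterpart and 10 of 20 without one had a peak, and for the small subunit these were 8 of 16 and 6 of 12.

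**Figure D2:**
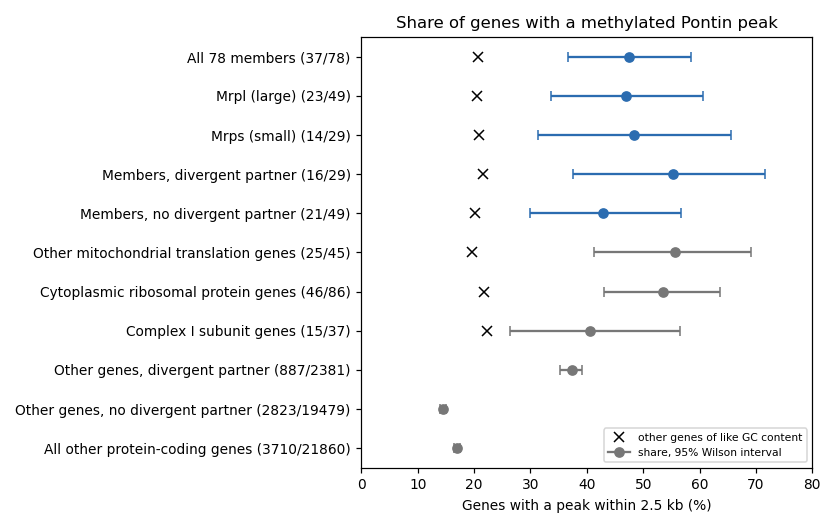
Share of genes with a methylated Pontin peak within 2.5 kb (%, x axis) for groups of genes (y axis, with genes with a peak over all genes), as points with 95% Wilson intervals; crosses give the share of other genes at the GC content of that group. All 5 groups of MRP genes lie to the right of their crosses, which fall between 20.1% and 21.6%. The crosses take other genes with and without a divergent partner together. Other genes with a partner gave 37.7% at the GC content of MRP genes with a partner, inside the interval of those MRP genes (37.5 to 71.6).

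The signal of each peak was its normalised tag count, in tags per 10000000 tags of the library (normalised tags below). The 37 genes were served by 37 peaks, since Mrps11 and Mrpl46 shared 1 peak and Mrpl48 had 2. Their signal ranged from 9.63 to 24.8 with a median of 15.2 (quartiles 12.3 and 18.3). The 3176 peaks within reach of other protein-coding genes alone had a median of 14.9 (quartiles 12.5 and 17.8) and reached 34.2. Where a peak was present at an MRP gene, its signal was close to that of peaks elsewhere. Fold over input was the authors' ratio to an input that the sources name only as control, without its media. The input tags under each peak were not examined, so a high fold can rest on very few of them. The median fold over input was 8.72 at MRP genes and 9.10 elsewhere, and the median fold over the surrounding 10 kb was 5.10 and 5.01. At least 8-fold over input were 22 of the 37 peaks (59.5%, 43.5 to 73.7) and 58.0% of the others. Peaks at large subunit genes had a median signal of 15.7 and those at small subunit genes 14.7. Their median folds over input were 8.21 (quartiles 6.14 and 14.1) and 13.6 (6.60 and 20.4). At least 8-fold were 13 of 24 peaks (54.2%, 35.1 to 72.1) and 10 of 14 (71.4%, 45.4 to 88.3). These intervals overlap widely, so no difference in fold between the subunits was resolved.

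Counting error limits the order of single genes. The median peak at an MRP gene held 31.6 tags, and the Poisson interval of the highest, 51.5 tags (38.4 to 67.6), overlapped the interval of a gene at the median. None of the neighbours in the order below differed beyond this error.

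The highest signal belonged to Mrpl13, the counterpart of bacterial L13, with 24.8 normalised tags, above 97.4% of all peaks in the list. Its peak at chr15:55557687-55558167 was 10.69-fold over input and 5.10-fold over its surroundings, centred 179 bp upstream of a start of Mrpl13, and the start of its divergent neighbour Mtbp was also in reach. Mrps35, a small subunit protein without a bacterial counterpart, followed with 22.2 normalised tags at chr6:147042600-147043080. That peak held 46.1 tags (33.8 to 61.5), was 14.33-fold over input and 8.31-fold over its surroundings, the highest local fold of the MRP genes, and was centred 76 bp downstream of the start with no other protein-coding start in reach. These were the only 2 MRP genes above 20 normalised tags.

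Mrps18a and Mrpl51 tied at 19.7 normalised tags, or 40.9 tags (29.3 to 55.5), and at 17.03-fold over input. The Mrps18a peak at chr17:46110497-46110977 was centred 249 bp upstream of its start, had a local fold of 7.44 and had no other protein-coding start in reach. The Mrpl51 peak at chr6:125192070-125192550 was centred 93 bp downstream of the nearest Mrpl51 start, had a local fold of 5.69 and was shared with Ncapd2, a condensin gene. Mrpl48 and Mrps28 came next with 19.5 normalised tags each. Mrpl48 was the only MRP gene with 2 peaks. One, at chr7:100583016-100583496, lay 146 bp upstream of an internal start and was 6.31-fold over input. The other, at chr7:100606897-100607377, had 14.0 normalised tags but 36.13-fold over input, and lay 501 bp downstream of the start that faces Rab6a. The 2 peaks of this gene thus ranked oppositely by tags and by fold over input. Mrps28 had a peak 215 bp downstream of its only start, 10.22-fold over input.

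Between 15 and 20 normalised tags there were, besides these, Mrpl54 (19.3), Mrpl43 (18.8), Mrps7 (18.5), Mrpl16 (18.3), Mrpl1 and Mrpl11 (both 17.3), Mrpl12 and Mrpl21 (both 17.1), Mrps15 (16.6), Mrpl47 (16.1), Mrpl58 (15.9), Mrpl3 (15.4) and Mrps2 (15.2). Mrpl11 and Mrpl12 encode some, but not all, of the proteins of the stalk that recruits translation factors, and the Mrpl11 peak was centred exactly on a start. Mrpl58, also named Ict1, encodes a subunit that releases peptides from stalled ribosomes, and its peak was the farthest upstream, at 571 bp. Mrps2 had the highest fold over input of the MRP genes, 39.25, at a signal equal to their median. Mrpl47 had the lowest, 4.64, at a slightly higher signal.

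Below 15 normalised tags the signals were 14.7 at Mrps33 and Mrps34, 14.2 at Mrps30, 13.5 at Mrpl39, 13.2 at Mrpl57, 13.0 at Mrpl28 and 12.8 at Mrps18c. They were 12.3 at Mrpl4 and Mrps5, 11.8 at Mrps27, 11.3 at Mrps12, which encodes the decoding centre protein related to bacterial S12, and 11.1 at Mrpl50. Mrps33, Mrps18c and Mrpl4 again joined modest tag counts to folds over input above 30, at 38.0, 33.02 and 31.77. How many input tags lay behind these folds was not examined.

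The lowest signals lay close to the threshold of the list. Mrpl19 had 9.63 normalised tags (20 tags, 12.2 to 30.9), with 6.23-fold over input and 4.45-fold over its surroundings, centred 185 bp upstream. Mrps11 and Mrpl46 shared a peak of 9.87 at chr7:78782618-78783098, 12.77-fold over input and 5.45-fold over its surroundings. The score of that peak was 18, the lowest in the list. Mrpl42 and Mrpl23 had 10.1 each, or 21.0 tags (13.0 to 32.1). The Mrpl42 peak was 13.08-fold over input, 4.86-fold over its surroundings and 364 bp downstream of the start, and the Mrpl23 peak was 8.72-fold, 4.33-fold and 194 bp downstream. Mrpl17 had 10.6, or 22.0 tags (13.8 to 33.3), at 5.48-fold over input, 6.09-fold over its surroundings and 151 bp downstream. No more than 10.4% of all peaks in the list had a lower signal than any of these 5 peaks.

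**Figure D3:**
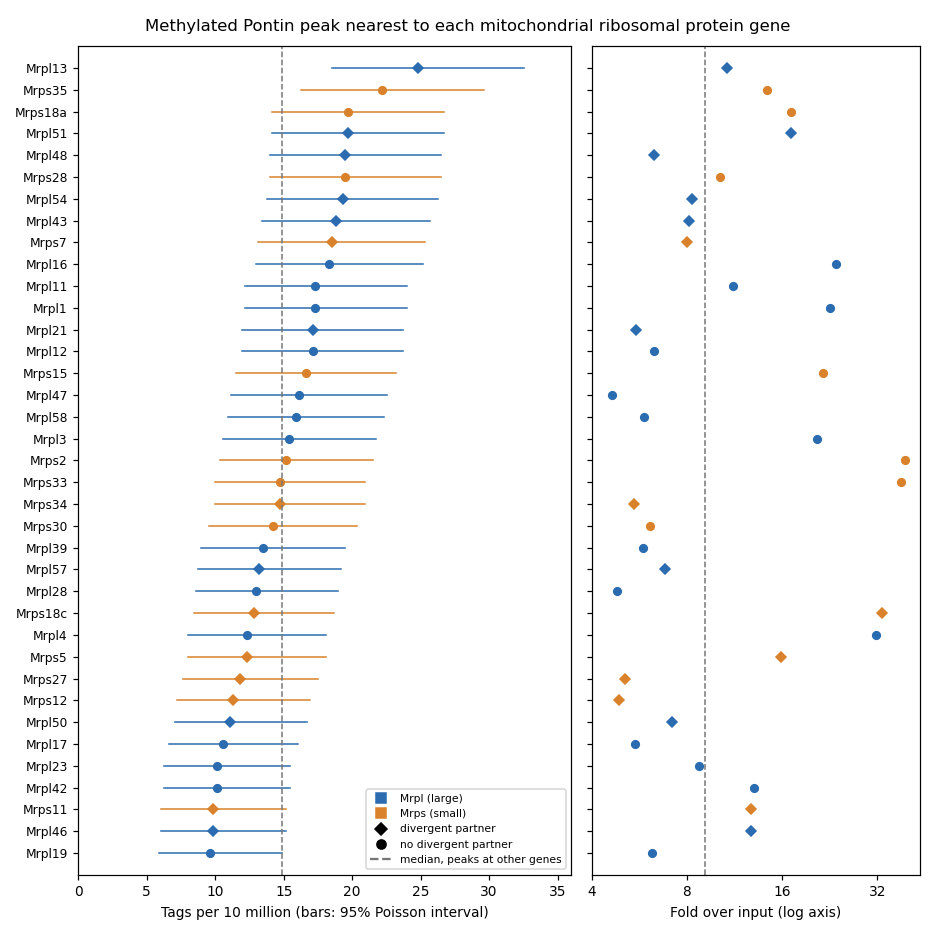
Signal in tags per 10000000 tags of the library (left, with 95% Poisson intervals of the tags) and fold over input (right, log axis) of the peak nearest to a TSS of each of the 37 MRP genes with a peak (y axis), coloured by subunit with diamonds for a divergent partner; dashed lines are the medians of peaks at other protein-coding genes. The signal falls from 24.8 at Mrpl13 to 9.63 at Mrpl19 with wide overlap of the bars, and fold over input, from 4.64 to 39.25, follows another order.

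Genes with and without a peak encode proteins of the same regions of the ribosome. Near the exit of the peptide tunnel, Mrpl17, Mrpl23 and Mrpl47 had a peak, while Mrpl22, Mrpl24 and Mrpl45, whose products sit in the same area, had none. In the central protuberance, Mrpl46, Mrpl48 and Mrpl58 had a peak, while Mrpl38 and Mrpl40 had none. These examples were chosen after their values were seen. They do not list every protein of either region, so they give no share of genes with a peak for a region. Of the S18-related paralogs, Mrps18a and Mrps18c had a peak and Mrps18b had none.

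For 6 of the 41 genes the nearest peak centre lay between 2.5 and 10 kb from a start: Mrpl35 (4.55 kb), Mrpl55 (5.61 kb), Mrps21 (7.05 kb), Mrpl53 (7.31 kb), Mrps17 (8.75 kb) and Mrpl24 (8.91 kb). The farthest peak counted, at Mrpl54, was centred 884 bp from a start, so no MRP gene lay near the limit of 2.5 kb on either side. The other large subunit genes without a peak were Mrpl2, Mrpl9, Mrpl10, Mrpl14, Mrpl15, Mrpl18, Mrpl20, Mrpl22, Mrpl27, Mrpl30, Mrpl32, Mrpl33, Mrpl34, Mrpl36, Mrpl37, Mrpl38, Mrpl40, Mrpl41, Mrpl44, Mrpl45, Mrpl49 and Mrpl52. The other small subunit genes without one were Mrps6, Mrps9, Mrps10, Mrps14, Mrps16, Mrps18b, Mrps22, Mrps23, Mrps24, Mrps25, Mrps26, Mrps31 and Mrps36. A gene without methylated Pontin cannot be told apart here from one with a signal below the limits of the list.

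Peaks lay close to the starts of MRP genes. The median signed distance from the nearest TSS was 90 bp downstream (quartiles -185 and 194, range -571 to 884). The interval of this median, -145 to 119 bp, spans the start and includes the median of other genes given next. Upstream of the start were 15 of 37 centres (40.5%, 26.3 to 56.5), against 55.3% (53.7 to 56.9) at the 3710 other genes with a peak, whose median distance was -98 bp. The interval of the MRP genes includes this 55.3%, so a difference in side was not resolved. Within 250 bp of a start were 24 of 37 (64.9%, 48.8 to 78.2) at MRP genes and 47.0% (45.4 to 48.6) at other genes, and within 500 bp these shares were 94.6% (82.3 to 98.5) and 78.5% (77.2 to 79.8). No MRP gene had its nearest centre beyond 1 kb, while 197 other genes (5.31%) did. The 2 subunits had like positions, with medians of 93 and 80 bp downstream for large and small. The median number of annotated TSSs was 3 at MRP genes with a peak and 5 at other genes with one.

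**Figure D4:**
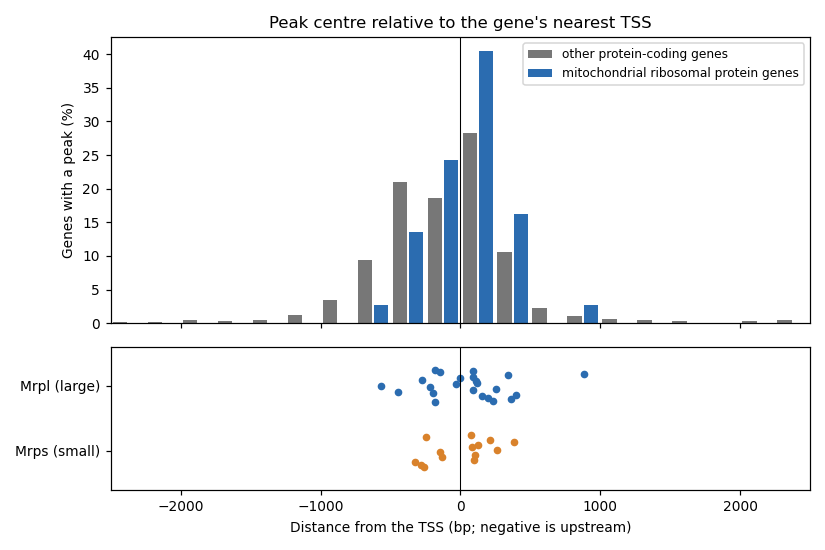
Distance of the peak centre from the nearest TSS of the gene (bp, x axis, negative upstream), as the percentage of genes with a peak in bins of 250 bp for MRP genes (blue, n = 37) and other protein-coding genes (grey, n = 3710), with the single Mrpl and Mrps genes below. The tallest blue bar, 40.5%, is the bin from 0 to 250 bp downstream, where the grey bar is 28.3%.

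Many MRP genes share a promoter region with a gene that is transcribed in the opposite direction. A divergent partner, another protein-coding gene on the opposite strand with 0 to 1000 bp between the starts, was found for 29 of 78 MRP genes (37.2%) and for 10.9% of the other genes. The gaps ran from 26 to 935 bp with a median of 59 bp. Among MRP genes with a partner 16 of 29 had a peak (55.2%, 37.5 to 71.6), and among those without a partner 21 of 49 did (42.9%, 30.0 to 56.7). The difference of 12.3 points had an interval from -10.1 to 33.2, which includes 0, and it turned to -8.37 points (-28.5 to 13.9) when each peak counted for its nearest gene only. Among other protein-coding genes the same difference was 22.8 points (20.8 to 24.8), from 37.3% of genes with a partner and 14.5% of genes without one. At the GC content of the MRP genes, other genes with a partner gave 37.7% (35.4 to 40) and other genes without one 17.7% (17.0 to 18.4). The interval of MRP genes with a partner reached down to the share of such other genes, and the interval of MRP genes without a partner did not. Weighted by GC content and partner together, the other genes gave 24.8% (23.9 to 25.6). Some MRP genes without a partner by this definition also shared their peak with another protein-coding gene in reach. These were Mrpl47 with Ndufb5, Mrps2 with 1700007K13Rik and Mrps30 with B430218F22Rik.

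The partner was then considered by subunit. A peak was found at 7 of 8 small subunit genes with a partner (87.5%, 52.9 to 97.8) and at 7 of 21 without one (33.3%, 17.2 to 54.6). For the large subunit these counts were 9 of 21 (42.9%, 24.5 to 63.5) and 14 of 28 (50%, 32.6 to 67.4). With each peak given to its nearest gene only, the small subunit count with a partner fell from 7 to 1 of 8, since at 6 genes the partner had the closer start and only Mrps5 kept its peak. The large subunit count stayed at 9 of 21. These counts are small and were split after the data were seen.

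Among the divergent pairs with a peak, some partners also act in mitochondria. Mrpl43 starts 116 bp from Twnk, the helicase of mitochondrial DNA, Mrps12 starts 172 bp from Sars2, the mitochondrial seryl-tRNA synthetase, and Mrps11 starts 30 bp from Mrpl46. Mrps18c starts 29 bp from Helq, a DNA helicase, Mrps34 29 bp from Eme2, and Mrps27 81 bp from Ptcd2. The other pairs with a peak were Mrpl54 with Apba3 (26 bp), Mrps7 with Gga3 (32 bp), Mrpl21 with Ighmbp2 (38 bp), Mrpl57 with Ska3 (49 bp), Mrpl48 with Rab6a (52 bp), Mrpl13 with Mtbp (59 bp), Mrpl50 with Zfp189 (83 bp), Mrpl51 with Ncapd2 (100 bp) and Mrps5 with Zfp661 (128 bp). In all of these the partner was within 2.5 kb of the same peak, and the peak cannot be assigned to either gene.

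No peak centre lay between the starts of a pair, but these gaps had a median of only 50.5 bp, so this says little about position. The 16 genes form 15 pairs with 1 peak each, because Mrps11 and Mrpl46 are partners, and the centre of their shared peak lay on the Mrpl46 side. In the other 14 pairs the centre lay 9 times on the side of the MRP gene, in its transcribed direction, and 5 times on the side of the partner. The 5 were Mrpl13 and the small subunit genes Mrps12, Mrps18c, Mrps27 and Mrps34. Distances from the divergent start of the MRP gene ran from 578 bp on the side of the partner at Mrpl13 to 894 bp on its own side at Mrpl54.

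The pairs without a peak had similar gaps. Their median was 66 bp, against 50.5 bp for those with a peak. They were Mrpl18 with Tcp1 (37 bp), Mrps18b with Ppp1r10 (45 bp), Mrpl27 with Eme1 (47 bp), Mrpl36 with Ndufs6 (51 bp), Mrpl49 with Fau (59 bp), Mrpl14 with Tmem63b (63 bp), Mrpl30 with Mitd1 (66 bp), Mrpl32 with Psma2 (75 bp), Mrpl37 with Cyb5rl (120 bp), Mrpl10 with Lrrc46 (153 bp), Mrpl40 with Hira (175 bp), Mrpl2 with Klc4 (207 bp) and Mrpl41 with Pnpla7 (935 bp). Ndufs6 encodes a subunit of respiratory complex I, Psma2 a proteasome subunit and Tcp1 a chaperonin subunit.

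**Figure D5:**
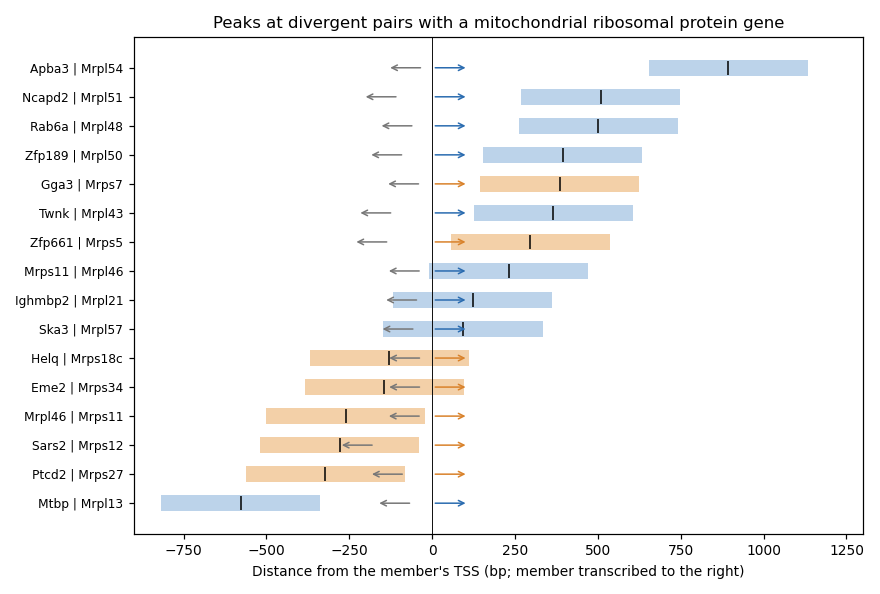
Peaks (bars of 481 bp, centre marked) at the 16 MRP genes with a divergent partner and a peak, by distance from the divergent TSS of the MRP gene (bp, x axis), which is transcribed to the right; blue is Mrpl and orange Mrps, and grey arrows are the partners. Centres lie from -578 bp at Mrpl13 to 894 bp at Mrpl54, 10 to the right of the start and 6 beyond the start of the partner, with the shared peak of Mrps11 and Mrpl46 drawn once for each gene.

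Motifs were counted in the RefSeq promoters, 300 bases from 250 before to 50 after a start, on both strands and by exact letters. Promoters were matched for 69 of the 78 genes, 30 with a peak and 39 without. Mrpl4, Mrpl13, Mrpl15, Mrpl19, Mrpl38, Mrpl54, Mrps28, Mrps34 and Mrps35 are named only. The ETS motif CCGGAAG was found in 26 of 69 MRP promoters (37.7%, 27.2 to 49.5) and in 13.2% of the promoters of other protein-coding genes (13.4% of all 16522). It was in 13 of 30 MRP promoters with a peak (43.3%, 27.4 to 60.8) and in 13 of 39 without one (33.3%, 20.6 to 49). Among other genes with a peak it was in 27.8%.

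The YY1 motif AAGATGGC was in 12 of 69 MRP promoters (17.4%, 10.2 to 28.0), 6 of 30 with a peak and 6 of 39 without, against 3.58% of other promoters and 7.31% of those with a peak. The NRF1 motif GCATGCGC was in 8 of 69 (11.6%, 5.99 to 21.2), against 4.08% and 7.99%. Only 2 of the 30 promoters with a peak held it, those of Mrpl17 and Mrpl39, and 6 of the 39 without. Thus the 3 motifs known from nuclear genes of mitochondrial proteins were more frequent in MRP promoters than in others, but the intervals for MRP genes with and without a peak overlapped widely. The GC box GGGCGG, with 34 of 69 (49.3%, 37.8 to 60.8), was about as frequent as in other promoters, 51.0%. It was in 16 of the 30 MRP promoters with a peak (53.3%, 36.1 to 69.8), an interval that includes the 68.2% of other genes with a peak, and in 18 of the 39 without one.

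The motif FOXO3a GTAAACA, of the factor with which the study connects methylated Pontin, was in 0 of the 30 MRP promoters with a peak (Wilson upper bound 11.4%, or 10% when a count of 0 is taken to allow 3). Searched over the whole peak of these genes instead of the promoter, it was found at 6.67% (1.85 to 21.3). It was in the promoters of 2 of the 39 without a peak, Mrpl40 and Mrpl44, in 3.49% of other promoters and in 2.92% of those with a peak. The CREB1 motif TGACGTC was in 1 of 30 and 3 of 39, against 4.49% of other promoters and 7.34% of those with a peak. The TFEB motif TCACGTG was also in 1 of 30 and 3 of 39, against 5.15% and 8.36%. The E2F1 motif GCGGGAA was in 3 of 30 and 2 of 39, against 7.06% and 10.4%. The counts of these 3 motifs in MRP promoters were too few to separate from the shares of other promoters. The E2F1 motif can overlap the GC box, the YY1 motif can overlap the end of the ETS motif, and copies of the GC box can overlap each other. A match is a run of letters in a fixed window and does not show that the factor was bound.

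Other genes of mitochondrial translation gave a similar picture. A list of 45 such genes, chosen with earlier results of these data known, had a peak at 25 (55.6%, 41.2 to 69.1), where other genes of like GC content gave 19.6%. The MRP genes minus this list differed by -8.12 points (-25.3 to 9.95). The proteins of the ribosome with other names had a peak at Dap3 (15.9 normalised tags), Ptcd3 (16.9) and Gadd45gip1 (21.4), 3 of 5. The translation factors had one at 10 of 15. These were the initiation factors Mtif2 (17.8) and Mtif3 (20.2), the elongation factors Tufm (11.3), Tsfm (14.2) and Guf1 (10.8), the recycling factors Gfm2 (18.3) and Mrrf (21.4), the release factor family member Mtrf1l (15.2), the membrane insertase Oxa1l (14.0) and Taco1 (11.6), an activator of translation.

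The factors of ribosome assembly and rRNA modification had a peak at 12 of 25, a share of 48.0% (30.0 to 66.5). They were the GTPases Mtg1 (16.9), Mtg2 (15.2), Eral1 (15.2) and Noa1 (16.4), the helicase Dhx30 (16.4), Fastkd2 (10.8), Rpusd4 (14.7), Mterf3 (13.0), Mterf4 (9.63), the methyltransferases Tfb1m (13.2) and Mrm3 (10.1), and Ybey (18.1). Dhx30 had 2 peaks. Signals ran from 9.63 to 21.4 over this list, within the range at MRP genes.

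The MRP genes were also set beside 2 other gene sets. Of 86 cytoplasmic ribosomal protein genes 46 had a peak (53.5%, 43.0 to 63.7), and of 37 genes for complex I subunits 15 did (40.5%, 26.3 to 56.5). The MRP genes differed from these by -6.05 points (-20.8 to 9.09) and 6.90 points (-12.3 to 24.8), both with intervals that include 0. At the GC content of each set the other genes gave 21.7% and 22.3%. Like the MRP genes, both sets thus had a peak more often than other genes of their GC content.

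MRP genes have processed copies elsewhere in the genome, so the peaks were searched for stretches of 32 bases that recur in GRCm38. In 28 of the 37 peaks there was none. The highest shares of recurring stretches were 27.3% at Mrpl51 and 23.3% at Mrps18a, and no peak had over 50%.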

How the data were processed

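The authors sequenced paired-end libraries, aligned the reads to GRCm38 (mm10) with Bowtie2 and called peaks of the starved ChIP against control input with HOMER 4.7.2, per the submitters' processing notes and the methods. The deposited signal is the normalised tag count of a peak per 10000000 tags. The authors also deposited 2 ratios for each peak, its fold over input and its fold over the 10 kb around it, each with a Poisson p-value. The deposited score was used to take the upper part of the peaks. The authors required a false discovery rate of 0.001 (tag threshold 18), a fold of 4 or more over both controls and a p-value of at most 0.0001. Of 13480 putative peaks, 3822 failed against input and 5347 against the surroundings. Which of the 2 inputs, from normal media or glucose starvation, served as the control is not named in the sources used here. It was not worked out from the deposited values either, so the condition of the input behind fold over input is left unstated. The deposited tags of the input were not used.

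TSSs of all transcripts of a gene were taken from GENCODE vM21. For 85 genes without an annotated coding transcript, GC content was not computed. Tags per peak were recovered from the signal and the total of 20765512 tags, and the median peak of the list held 29.5 tags. Shares have Wilson, differences Newcombe and tags Poisson intervals, and the interval of the median distance was taken from the ranked values. No test between samples was possible with 1 library. Promoter sequences came from RefSeq (GRCm38.p6), with annotated UTRs left out of those printed.

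The genes and lists were chosen with earlier results of these data known. Every gene with a peak was named with its signal, the 5 highest and 5 lowest signals were described in full, and genes without a peak were named with the distance of a peak within 10 kb. Sequences were shown for the 3 highest matched genes, of which Mrpl51 also belongs to a divergent pair. Alternatives covered distance limits, coding transcripts only, 8-fold peaks, the upper part by score, the nearest gene only, distance from the peak edge, other GC bins and windows, the gap of divergent pairs, and motifs in whole peaks. The procedures were checked on simulated data. Scripts ran in Python 3.11.15 with pandas 2.3.3, SciPy 1.17.1, NumPy 2.4.6, and figures were drawn with matplotlib 3.10.9.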

Additional observations from a re-analysis of the deposited data

How the results depend on the processing

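No paired analysis was possible because only 1 ChIP library was analysed and no result comes from a test. The number of MRP genes with a peak was 37 under limits of 1 kb, by coding transcripts alone or from the peak edge, 38 under 5 kb and 31 when each peak counted for its nearest gene only. It was 23 with peaks at least 8-fold over input (29.5%, against 9.86% of other genes) and 20 with peaks at or above the median score (25.6% against 9.95%), both of which keep fewer peaks by construction, as do 15 genes of the translation list by score, a median signal of 17.8 by score and a median fold over input of 16.5 by the 8-fold limit. The share of other genes of like GC content was 20.7%. It was 19.6% under 1 kb, 22.0% under 5 kb, 12.0% by the 8-fold limit, 12.2% by score, 17.5% by nearest gene, 19.7% with GC content of 300 bp, 24.8% with the divergent partner as well and 26.5% by CpG count, and the share of MRP genes was higher under each of these. The difference between large and small subunit changed sign to 0.704 points under 5 kb, 2.39 by score, 2.87 by structure and 19.4 by nearest gene, each with an interval that includes 0. By nearest gene, 6 small subunit genes gave their peak to a divergent partner, and the difference between MRP genes with and without a partner turned to -8.37 points (-28.5 to 13.9). Among the 30 matched MRP genes with a peak, the ETS motif was found at 26.7% in whole peaks and 43.3% in promoters, and the cause was not tested. The CpG bins, the number of TSSs as a covariate (21.2%) and the grouping by structure were chosen after seeing the data.

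With 1 ChIP library and no replicate, no spread between cultures can be given. Regions below the limits of the peak list were not seen, and a peak at a divergent pair belongs to both genes. The median peak held 29.5 tags, so signals of single genes are ordered only roughly. Expression of the genes was not analysed here.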
